A study of Mus musculus with 12 samples.

Results

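Clones F5 and G5 were compared with clone H7, all 3 being derivatives of the mouse embryonic fibroblast line NIH3T3 in which AEBP1 had been knocked out. The comparison rests on 9 of the 12 libraries of the series, chosen by clone name alone: F5, G5 and H7, each sampled at passages 7, 8 and 9. Both F5 and G5 counted equally against H7, and passage number was a block in the fit. The other 3 libraries came from the uncloned wild-type parental line at passages 6, 7 and 8. They took no part in the comparison and are given only as a reference level. All cells grew in DMEM/F12 medium with serum and received no treatment named in the labels. The title of the series places AEBP1 in cancer-associated fibroblasts and in the response to anti-PD-1. Since the knockout is carried by every one of the 9 libraries, the comparison asks how far clones that all carry the knockout label differ from each other.

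Limits of the clones as models bear on every value below. The sources used here do not give the guide, the edited exon or the allele of any clone, and each clone is a single line, so the contrast is between 2 clones and 1. The labels do not say that the passages of a clone were separate cultures. The p-values therefore measure only the spread between these libraries, which may be technical.

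AEBP1, also called ACLP, is secreted into the matrix, where its discoidin domain binds collagen, and fibroblasts of connective tissue are known for making it. A clone descends from a single cell, so any heritable difference between cells of the parental line, in chromosome number, in DNA methylation or in the set of active developmental genes, is carried by all of its descendants. NIH3T3 cells are known to be aneuploid. In bulk RNA a lower value in a clone can come from fewer cells with a transcript or from less of it per cell, and these cannot be told apart.

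Aebp1 itself (chromosome 11) was measured at 214, 175 and 189.5 CPM in F5, 138, 124 and 123 in G5 and 158, 131 and 153 in H7, in the order of passages 7, 8 and 9, which is the order of all values below. CPM are counts scaled to library size with edgeR's TMM factors. The parental libraries lay between 468 and 614 CPM. Every clone library was below every parental library, and the transcript remained at 123 CPM or more in all clone libraries. The F5 libraries were the highest of the 3 clones and did not overlap those of G5 or H7. Between the mean of F5 and G5 and H7 the log2 difference was 0.10 ± 0.04 (SE), adjusted p = 0.083, which missed the threshold of 0.05. It passed under 2 alternatives, with 0.15 (adjusted p = 0.027) without H7 at passage 9 and 0.16 (adjusted p = 0.013) with a normalization factor for each chromosome. Counts over the whole gene do not show whether an edited transcript still codes for the protein.

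Library totals lay between 22088695 and 31329735 counts, and between 18327 and 18936 genes had at least 1 count in a clone library. In a multidimensional scaling of the 9 libraries the first dimension carried 60.3% of the variance and held H7 at 1.84 to 1.96, against -1.17 to -0.744 for the libraries of F5 and G5. The second dimension, with 11.2%, ordered the libraries of each clone by passage in the same way, with passage 7 lowest, passage 9 between and passage 8 highest. Fibroblast markers were abundant in all clones: the summed level of the 14 listed was 24505 to 25957 CPM in F5, 23677 to 25513 in G5 and 24493 to 27955 in H7, with Fap at 0 in all 9 libraries. The markers of other cell types were mostly at or near 0, as described at the end.

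**Figure D1:**
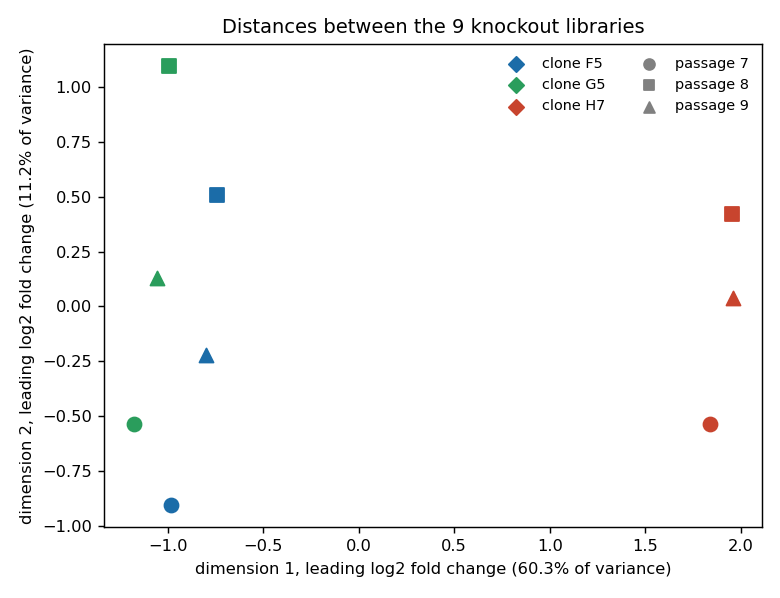
Distances between the 9 knockout libraries, on the 500 genes with the largest differences for each pair. Colours mark clones and symbols mark passages, and both axes are leading log2 fold changes. The 3 H7 libraries lie at 1.84 or more on the first dimension and the 6 libraries of F5 and G5 at -0.744 or less.

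Of 14487 genes tested, 6678 (46.1%) differed between the mean of F5 and G5 and H7 at an adjusted p under 0.05. Of these, 3266 (22.5% of all genes tested) were higher in F5 and G5, and 3412 (23.6%) were higher in H7. On log2(TPM + 1) with limma the split was 3403 higher and 2303 lower, so that 59.6% of calls were higher in F5 and G5, against 48.9% in the count fit. Most differences were small: the median size among the called genes was 0.353 on the log2 scale. A call together with a difference over 2-fold was met by 456 genes (3.15%) higher in F5 and G5 and by 443 genes (3.06%) higher in H7. For 2131 genes (14.7%) all 6 libraries of F5 and G5 lay above all 3 of H7, and for 2106 (14.5%) all lay below. In the sentences that follow, a log2 difference is the mean of F5 and G5 minus H7, so a positive value means higher in F5 and G5, and each list is to be read against these shares and against a median of 0.000475 over all genes tested.

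Taken alone against H7, F5 differed at 6132 genes (42.3%), 20.9% higher and 21.4% lower, and G5 at 5806 (40.1%), 19.8% higher and 20.3% lower. Both comparisons use the same 3 H7 libraries, so their likeness is no independent support. Between F5 and G5 themselves 529 genes (3.65%) differed, 1.6% higher in F5 and 2.05% lower. That smaller count is unstable: it lay between 121 and 221 without any 1 of the 6 libraries of F5 and G5, and rose to 810 without H7 at passage 7 and 823 without H7 at passage 8. Without the passage block, 4195 genes were called between F5 and G5 and H7, 2092 of them higher in F5 and G5 and 2103 higher in H7.

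The largest differences were genes that were read in F5 and G5 and at or near 0 in H7. Among the genes tested, 11 had at most 3 counts over the 3 H7 libraries and at least 5 CPM in both F5 and G5, and 8 of these had no count in H7 at all. No gene met the reverse condition, with at most 3 counts in F5 and in G5 and at least 5 CPM in H7. The 8 silent genes were Jph1, Ralgps2, Btbd11, Gtpbp10, Galnt17, Zfp422, Dcp1b and Mbnl3, which lie on chromosomes 1, 1, 10, 5, 5, 6, 6 and X. Sobp, Hecw1 and Rab6b had 1 count each.

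Btbd11 encodes a protein with BTB and ankyrin domains. It had 23, 18.8 and 18.8 CPM in F5, 21.3, 20.4 and 20.03 in G5 and 0 in all 3 H7 libraries, and at 13.3 to 17.4 CPM in the parental line. Against the limit that 0 counts allow, 3 counts over the H7 libraries or 0.0386 CPM, it was at least 529-fold higher in F5 and G5. Galnt17, an enzyme of the family that starts mucin-type O-glycans, had 18.9, 26.1 and 24.4 CPM in F5, 11.9, 15.9 and 13.4 in G5 and no count in H7, at least 478-fold higher. The F5 and G5 libraries did not overlap for Galnt17, with F5 the higher.

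Gtpbp10 encodes a GTPase that helps to assemble the mitochondrial ribosome. Its values were 10.8, 9.95 and 10.5 CPM in F5, 8.51, 10.1 and 9.87 in G5 and no count in H7, at least 258-fold higher in F5 and G5. Mbnl3, a splicing regulator of the muscleblind family, was at 11.1, 8.1 and 9.71 CPM in F5, 12.7, 10.8 and 12.9 in G5 and no count in H7, at least 282-fold higher. In the parental line Mbnl3 was at only 0.475 to 0.748 CPM, so its level in F5 and G5 lay above both H7 and the parental libraries. Hecw1, a ubiquitin ligase, had the same order, with 7.69, 12.5 and 7.4 CPM in F5, 8.16, 9.25 and 6.33 in G5, a single count in H7 and 0.403 to 0.713 CPM in the parental line. For Hecw1 the ratio of F5 and G5 to H7 was 665, with a 95% counting interval of 119 to 26284.

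The other genes without a count in H7 were at least 249-fold higher for Ralgps2, which activates Ral GTPases, 213-fold for Jph1, a junctophilin that ties the cell membrane to the endoplasmic reticulum, 183-fold for the zinc finger gene Zfp422 and 150-fold for Dcp1b, a partner of the mRNA decapping enzyme. Each of these was read in every F5, G5 and parental library. Rab6b, a small GTPase of Golgi transport, had a ratio of 447 with an interval of 80.3 to 17672, and Sobp, a nuclear protein first known from its fly relative, had 506 with an interval of 90.9 to 20000. Only counting error is covered by these bounds. Gpc6, a glypican, kept 6 counts in H7: its levels were 20.4, 27.3 and 25.2 CPM in F5, 22.1, 29.6 and 29.98 in G5 and 0.159, 0 and 0.0786 in H7, a log2 difference of 8.30 ± 0.21 (SE), adjusted p = 2.02e-09.

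**Figure D2:**
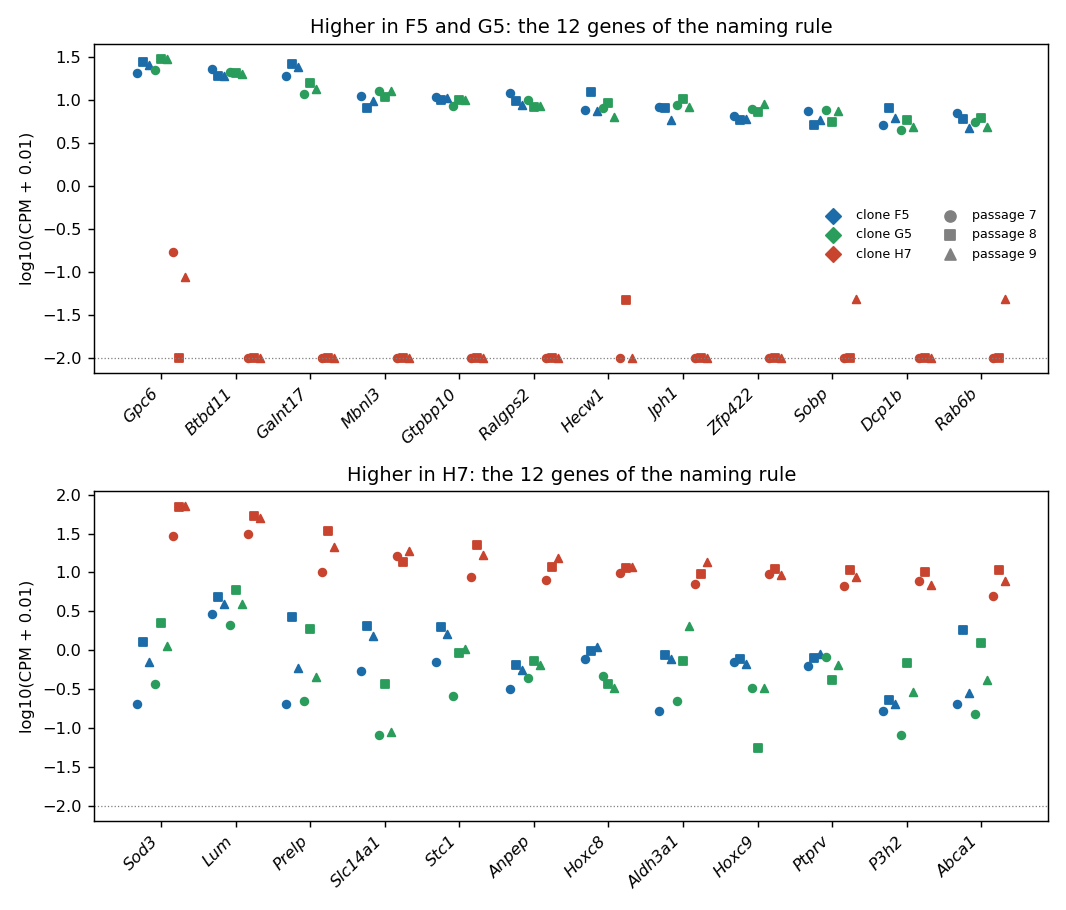
Level of the 24 genes with the largest differences in each of the 9 knockout libraries, as log10 of CPM plus 0.01, so that a library without a count sits at the dotted line. Colours mark clones and symbols mark passages. In the upper panel the H7 libraries lie at or near the dotted line, while in the lower panel H7 lies above F5 and G5. Libraries that do not overlap were a condition for choosing the 24 genes.

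The genes most enriched in H7 were low but still read in F5 and G5, and secreted and cell surface proteins were among them. Sod3, the extracellular superoxide dismutase, was at 0.191, 1.26 and 0.694 CPM in F5, 0.353, 2.22 and 1.11 in G5 and 29.5, 70.6 and 70.7 in H7, a log2 difference of -5.95 ± 0.14 (SE), adjusted p = 1.54e-09. The H7 libraries were above all others, parental included, where Sod3 lay between 4.12 and 9.72 CPM. Stc1, a secreted glycoprotein linked to calcium and phosphate balance, was at 0.689, 1.98 and 1.62 CPM in F5, 0.247, 0.906 and 1.04 in G5 and 8.75, 22.9 and 16.7 in H7, a log2 difference of -3.99 ± 0.12 (SE). For Stc1, too, every H7 library exceeded every parental library (2.06 to 5.1 CPM).

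Anpep, a membrane aminopeptidase of fibroblasts, was at 0.306, 0.628 and 0.54 CPM in F5, 0.424, 0.725 and 0.637 in G5 and 7.95, 11.7 and 15.1 in H7, a log2 difference of -4.40 ± 0.13 (SE). The collagen prolyl 3-hydroxylase P3h2 was at 0.153, 0.22 and 0.193 CPM in F5, 0.0706, 0.68 and 0.279 in G5 and 7.79, 10.3 and 6.92 in H7, a log2 difference of -5.07 ± 0.24 (SE). Both sets of H7 values lay above all 6 of F5 and G5, which was a condition for choosing the genes most enriched in H7. The urea transporter gene Slc14a1 had 0.536, 2.04 and 1.5 CPM in F5, 0.0706, 0.363 and 0.0796 in G5 and 16.2, 13.7 and 19.1 in H7, so that G5 was also lower than F5, and the parental libraries ranged over 4.44 to 23.3 CPM.

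Abca1, the pump that passes cholesterol and phospholipid out of cells, was at 0.191, 1.79 and 0.27 CPM in F5, 0.141, 1.22 and 0.398 in G5 and 4.97, 10.9 and 7.78 in H7, with a log2 difference of -3.74 ± 0.29 (SE) and no overlap. Aldh3a1, an aldehyde dehydrogenase, showed -3.78 ± 0.26 (SE) and Ptprv, a receptor-type phosphatase gene that the annotation lists as a processed transcript, -3.62 ± 0.18 (SE). In each of the 3 clones the passage 8 library had the highest Abca1 level, and H7 was highest at each passage.

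Most enzymes of cholesterol synthesis were higher in F5 and G5. Cells make cholesterol from acetyl-CoA by the mevalonate pathway, and the transcription factor SREBP2, product of Srebf2, is known to drive most of its genes when membrane cholesterol is low. Of 24 tested members of the list of cholesterol synthesis and uptake, 18 were called higher in F5 and G5 and 0 higher in H7, with a median log2 difference of 0.45. For 17 of the 24 all 6 libraries of F5 and G5 lay above all 3 of H7. The list had 25 members. The H7 library of passage 7 bears on the count of 0: without it, 3 members were called higher in H7.

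Lss, the lanosterol synthase that closes the sterol ring, was at 117, 128 and 125 CPM in F5, 122, 135 and 122 in G5 and 38.2, 48.3 and 46.9 in H7, a log2 difference of 1.49 ± 0.05 (SE), adjusted p = 1.36e-08. All 6 libraries of F5 and G5 were above the highest H7 value, and the parental libraries (104 to 110.3 CPM) lay near F5 and G5. Tm7sf2, a sterol reductase, was at 8.15, 12.6 and 10.7 CPM in F5, 9.996, 14.5 and 10.2 in G5 and 3.98, 6.15 and 5.98 in H7, a log2 difference of 1.04 ± 0.10 (SE). Mvk, the mevalonate kinase, was at 33.1, 29.7 and 33.8 CPM in F5, 31.1, 30.1 and 32.1 in G5 and 21.5, 23 and 23.1 in H7, a log2 difference of 0.49 ± 0.05 (SE). None of these 3 overlapped between H7 and the other clones.

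Other called members, taken outside the naming rule, included Mvd (0.73 ± 0.09 (SE)), the mevalonate diphosphate decarboxylase, and Hsd17b7 (0.30 ± 0.06 (SE)), which had the smallest difference among the called members. They also included Hmgcs1 (0.42 ± 0.07 (SE)), which opens the mevalonate pathway, and Insig1 (0.55 ± 0.07 (SE)), which holds SREBP proteins in the endoplasmic reticulum. Srebf2 itself was not called at -0.08 ± 0.05 (SE), nor was Sqle, the squalene epoxidase, at -0.05 ± 0.05 (SE), and both lie on chromosome 15, where most genes were higher in H7. Scaling each chromosome by its own factor put Srebf2 at 0.30 and Sqle at 0.34, and raised the number of members called higher in F5 and G5 from 18 to 22, with 0 called higher in H7.

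The sequence before the start site is shown for 4 members, because SREBP proteins are known to act on promoters together with the CCAAT-binding factor NF-Y. Of 25 list members 17 had a promoter in the RefSeq table of GRCm38.p6. Taking the 250 bases before each start, CCAAT on either strand was present in 16 of these 17 genes (94.1%), against 37.5% of 27025 genes with a promoter in that table and 33.9% of its promoters. CACNCCAC on either strand, the core of the sterol element of this group, was present in 3 of 17 (17.6%), against 6.05% of genes and 5.29% of promoters. Capitals mark the matches, read as CCAAT or its complement ATTGG and as CACNCCAC or its complement GTGGNGTG. The 4 were chosen as the member with the largest difference and those that hold the sterol core. A match is a description of the letters and shows no binding. A gene counted as matched if any of its listed promoters held the letters. The matches did not follow the calls: Ebp, Srebf2 and Dhcr7 were not called and held CCAAT, while Acat2 was called and held none. The stretches lie at chr10:76531355-76531604, plus strand for Lss, chr13:119690101-119690350, plus strand for Hmgcs1, chr5:28071162-28071411, plus strand for Insig1 and chr17:12960726-12960975, minus strand for Acat2.
Lss: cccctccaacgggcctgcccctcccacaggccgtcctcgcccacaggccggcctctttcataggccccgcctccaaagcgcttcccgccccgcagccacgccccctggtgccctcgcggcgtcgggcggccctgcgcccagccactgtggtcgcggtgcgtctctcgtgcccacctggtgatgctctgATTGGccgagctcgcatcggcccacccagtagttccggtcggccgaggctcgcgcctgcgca
Hmgcs1: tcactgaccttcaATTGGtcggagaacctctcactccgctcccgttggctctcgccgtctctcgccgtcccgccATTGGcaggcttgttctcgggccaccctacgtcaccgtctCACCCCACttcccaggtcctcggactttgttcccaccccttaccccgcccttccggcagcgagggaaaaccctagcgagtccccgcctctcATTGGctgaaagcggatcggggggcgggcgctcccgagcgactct
Insig1: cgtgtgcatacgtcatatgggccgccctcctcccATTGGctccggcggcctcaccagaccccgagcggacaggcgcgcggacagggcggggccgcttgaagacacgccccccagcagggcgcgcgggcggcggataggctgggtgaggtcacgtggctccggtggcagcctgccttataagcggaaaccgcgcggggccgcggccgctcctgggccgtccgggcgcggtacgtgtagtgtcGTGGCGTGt
Acat2: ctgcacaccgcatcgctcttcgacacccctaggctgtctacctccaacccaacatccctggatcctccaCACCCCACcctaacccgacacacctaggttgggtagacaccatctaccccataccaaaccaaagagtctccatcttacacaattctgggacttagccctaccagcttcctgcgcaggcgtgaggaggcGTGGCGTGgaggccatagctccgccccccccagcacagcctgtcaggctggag

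In these windows Lss held 1 CCAAT match and no sterol core, Hmgcs1 held 3 and 1, Insig1 held 1 and 1, and Acat2 held none and 2. The 4 genes were all called higher in F5 and G5, with log2 differences of 1.49, 0.42, 0.55 and 0.49. Lss was chosen for its difference, and 18 of the 24 tested members were called higher, so these calls do not link a motif to a direction.

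**Figure D3:**
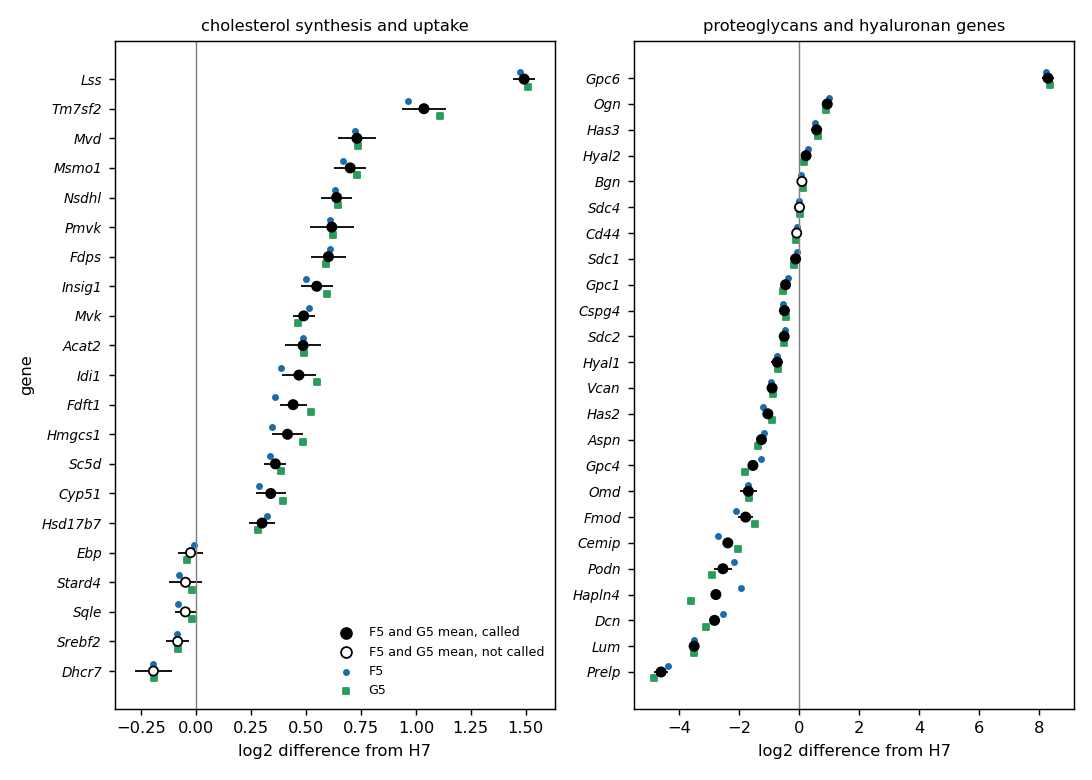
Log2 difference from H7 for 21 of the 24 tested members of the cholesterol list and all 24 of the proteoglycan list. Black circles give the mean of F5 and G5 with its standard error, filled where the gene was called, and small symbols give F5 and G5 alone. The 16 called members of the cholesterol list that are plotted lie above 0, while 17 of 24 members of the proteoglycan list are called below 0 and Gpc6 stands apart at 8.30.

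Genes of fatty acid synthesis and desaturation were also mostly higher in F5 and G5: 8 of 14 tested members were higher in F5 and G5, 2 were higher in H7, and the median log2 difference was 0.36. Scd1, the delta-9 desaturase, was at 163, 185 and 169 CPM in F5, 159, 183 and 177 in G5 and 103, 131 and 135 in H7, a log2 difference of 0.49 ± 0.05 (SE). The desaturase gene Fads1 showed 0.47 ± 0.05 (SE), the elongase gene Elovl5 0.38 ± 0.04 (SE) and Acly, which makes cytosolic acetyl-CoA, 0.36 ± 0.04 (SE). In all 4 the H7 libraries lay below all others of the clones. The members higher in H7, Srebf1 with -0.20 ± 0.04 (SE) and Fasn, the fatty acid synthase, with -0.17 ± 0.05 (SE), were small differences, and 1 of the 2 was called without H7 at passage 8 or without the passage block, and 0 with limma on log2(TPM + 1). With a factor per chromosome 1 was called.

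Glycolysis and hypoxia-induced genes were split: 14 of 25 tested members were higher in F5 and G5 and 6 were higher in H7 (3 without the passage block), with a median log2 difference of 0.15. Pfkl, the liver-type phosphofructokinase, was at 213, 182 and 180.2 CPM in F5, 196, 161 and 149 in G5 and 97, 84.7 and 80.1 in H7, a log2 difference of 1.04 ± 0.04 (SE), adjusted p = 1.88e-08. Pfkp, the platelet-type form of the same enzyme, went the other way at -0.78 ± 0.08 (SE). Tpi1 showed 0.44 ± 0.03 (SE), Bnip3, a mitochondrial protein of mitophagy, 0.64 ± 0.04 (SE) and the vasodilator peptide gene Adm 1.54 ± 0.10 (SE). With a factor per chromosome 12 members were higher in F5 and G5 and 4 in H7. In that fit Tpi1 was at 0.16, Pfkl at 0.85 and Bnip3 at 0.74, all still called. Among hypoxia-induced genes the direction was not uniform, since Vegfa was higher in H7 with -0.35 ± 0.04 (SE) while Egln3 was higher in F5 and G5 with 1.29 ± 0.11 (SE).

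Among nuclear-encoded subunits of the respiratory chain, the called members were mostly higher in H7. Of 40 tested members 16 were higher in H7, 4 were higher in F5 and G5 and 20 were not called, with a median of -0.10. The 4 members with the smallest adjusted p were Ndufb9 of complex I (-0.68 ± 0.05 (SE)), Cyc1 of complex III (-0.54 ± 0.04 (SE)), Cox6c of complex IV (-0.56 ± 0.05 (SE)) and Atp5a1 of the ATP synthase (-0.47 ± 0.03 (SE)). Ndufb9 was at 31.9, 38.7 and 34.7 CPM in F5, 34, 35.7 and 33.6 in G5 and 54.4, 55.5 and 57.6 in H7, and none of the 4 overlapped between H7 and the other clones. Ndufb9, Cyc1 and Cox6c lie on chromosome 15 and Atp5a1 on chromosome 18, the 2 chromosomes with the largest shift toward H7. With a factor per chromosome these 4 were at -0.30, -0.16, -0.18 and -0.17, still called, and the list counts became 22 higher in H7 and 0 in F5 and G5.

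Proteoglycan and hyaluronan genes formed the list with the lowest median, -0.82, among those that are not markers of other cell types: 17 of 24 tested members were higher in H7 and 4 in F5 and G5. Small leucine-rich proteoglycans bind collagen fibrils and set their spacing. Lum, lumican, was at 2.95, 4.83 and 3.97 CPM in F5, 2.12, 5.89 and 3.94 in G5 and 30.9, 52.6 and 49.7 in H7, a log2 difference of -3.51 ± 0.09 (SE), adjusted p = 1.91e-09, with parental libraries at 34.6 to 83.4 CPM. Decorin, Dcn, was at 10.4, 21.3 and 14.6 CPM in F5, 5.69, 14.9 and 11.1 in G5 and 72.3, 92.5 and 98.6 in H7, a log2 difference of -2.83 ± 0.12 (SE), and its parental level was 102 to 349 CPM. Prelp was at 0.191, 2.67 and 0.578 CPM in F5, 0.212, 1.86 and 0.438 in G5 and 10.02, 34.1 and 21.5 in H7, a log2 difference of -4.61 ± 0.22 (SE), again with passage 8 highest in each clone. For these 3 all H7 libraries lay above all libraries of F5 and G5. For Lum and Prelp this was a condition of their choice among the genes most enriched in H7.

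Other members of the list included glypican 4, Gpc4, at 25.2, 53.7 and 38.9 CPM in F5, 18.4, 32.3 and 28.3 in G5 and 74.5, 109 and 93.7 in H7, a log2 difference of -1.55 ± 0.07 (SE). Taken outside the naming rule, the hyaluronan synthase Has2 showed -1.05 ± 0.11 (SE), the hyaluronan-degrading protein gene Cemip -2.39 ± 0.13 (SE) and versican, Vcan, -0.91 ± 0.06 (SE). Osteoglycin, Ogn, a relative of lumican, went the other way with 0.93 ± 0.09 (SE), and biglycan, Bgn, was not called at 0.09 ± 0.04 (SE). Leaving out passage 7 in all clones reduced the members higher in F5 and G5 from 4 to 2.

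Collagens were divided by chain. Of 21 tested fibrillar collagens and crosslinking genes, 9 were higher in H7 and 5 in F5 and G5, with a median of -0.12. Col11a1, a chain that nucleates fibrils, was at 3.22, 4.68 and 4.01 CPM in F5, 2.72, 2.86 and 3.23 in G5 and 34.3, 39.1 and 43.5 in H7, a log2 difference of -3.50 ± 0.07 (SE), adjusted p = 3.77e-10, and H7 lay above the parental range of 14.5 to 18.3 CPM. Col3a1 was at 253, 262 and 271 CPM in F5, 236, 193 and 219 in G5 and 540.4, 728 and 746 in H7, a log2 difference of -1.49 ± 0.09 (SE), with no overlap. Type I collagen was split between its 2 chains: Col1a1 was higher in H7 at -0.40 ± 0.06 (SE) and Col1a2 higher in F5 and G5 at 0.21 ± 0.04 (SE), where Col1a2 lies on chromosome 6 and was at -0.08 with a factor per chromosome. Loxl4, a lysyl oxidase of crosslinking, was higher in F5 and G5 with 0.64 ± 0.05 (SE). The 5 members higher in F5 and G5 became 3 without H7 at passage 9. Without the passage block 2 were higher in F5 and G5 and 5 in H7.

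Of 12 other collagen chains 5 were higher in H7 and 3 in F5 and G5. Col12a1, which coats fibrils, was at 45.2, 36.9 and 41.6 CPM in F5, 62, 63.4 and 71.3 in G5 and 141, 419 and 326 in H7, a log2 difference of -2.43 ± 0.22 (SE), with the widest spread in H7. The basement membrane chains Col4a1 and Col4a2 both showed -0.73, at -0.73 ± 0.04 (SE) and -0.73 ± 0.04 (SE), and their libraries overlapped, with passage 7 lowest in every clone. Laminin chains went both ways: Lama4 was higher in H7 with -1.65 ± 0.08 (SE), and Lama2 higher in F5 and G5 with 1.15 ± 0.08 (SE), where F5 accounted for the larger part (1.78 for F5 and 0.52 for G5).

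Among 23 matricellular and elastic fibre genes 8 were higher in H7 (4 without the passage block) and 5 in F5 and G5. Tgfbi, a secreted adhesion protein, was at 4.1, 6.94 and 7.02 CPM in F5, 0.0706, 0.408 and 0.398 in G5 and 37, 54.4 and 59.4 in H7. The 3 clones did not overlap, in the order H7, F5, G5, and the log2 difference between F5 and G5 was 4.39 ± 0.20 (SE), adjusted p = 3.58e-06. Ltbp4, which anchors latent TGF-beta and helps to assemble elastic fibres, was at 68.6, 62.7 and 53.8 CPM in F5, 64.5, 73.6 and 58.8 in G5 and 11.6, 8.25 and 9 in H7, a log2 difference of 2.73 ± 0.09 (SE), adjusted p = 1.36e-08, with parental values of 49 to 61 CPM near F5 and G5. Sparc showed -0.72 ± 0.03 (SE) and Mfap5 1.36 ± 0.11 (SE).

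Matrix proteases and their inhibitors were higher in H7 at 11 of 24 tested members and higher in F5 and G5 at 5. Adamts1, a protease that cleaves versican and other proteoglycans, was at 39.3, 53.7 and 42.3 CPM in F5, 41.4, 59.5 and 41.4 in G5 and 121, 211 and 148 in H7, a log2 difference of -1.77 ± 0.05 (SE). Mmp2, a gelatinase, showed -0.62 ± 0.03 (SE), and the inhibitors Timp1 and Timp2 were also higher in H7 at -0.49 ± 0.03 (SE) and -0.60 ± 0.04 (SE). None of these 4 overlapped. Serpine2, an inhibitor of thrombin and plasminogen activators named here after its values were seen, had 0 counts in H7. Its mean was 3.61 CPM in F5 and 0.467 in G5. The mean of the 2 clones was at least 52.9-fold higher than H7, a bound that rests mostly on F5 and does not describe G5 alone.

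Of 27 cadherins, integrins and adhesion receptors 14 were higher in H7 and 6 in F5 and G5, with a median of -0.24. Itgb4, the integrin beta chain of hemidesmosomes, was at 1.34, 0.816 and 0.848 CPM in F5, 0.6, 1.13 and 0.637 in G5 and 9.26, 10.1 and 10.9 in H7, a log2 difference of -3.52 ± 0.18 (SE), adjusted p = 1.65e-07, and its parental level was 1.5 to 1.66 CPM. Cadherin 11, Cdh11, known from mesenchymal cells, was at 36.2, 54.1 and 51.7 CPM in F5, 52.5, 73.1 and 75.6 in G5 and 105, 158 and 162 in H7, with a log2 difference of -1.32 ± 0.04 (SE) and F5 below G5 (-0.51 ± 0.05 (SE), adjusted p = 0.00033). Alcam showed -1.07 ± 0.05 (SE), and the protocadherin Pcdh10 was higher in F5 and G5 with 2.85 ± 0.13 (SE).

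Most of the called chemokine and NF-kappaB genes were higher in H7. NF-kappaB is a family of transcription factors that inflammatory signals release into the nucleus, where they drive chemokines and their own inhibitors. Of 13 tested cytokine and chemokine genes 8 were higher in H7 and 2 in F5 and G5 (5 and 1 without the passage block), with a median of -0.41. Of 18 NF-kappaB subunits, inhibitors and targets 12 were higher in H7 and 0 in F5 and G5, with a median of -0.23. The lists share Ccl2 and Cxcl1, so they are not separate evidence.

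Ccl2, which attracts monocytes, was at 1.26, 1.76 and 2.43 CPM in F5, 1.17, 1.86 and 1.55 in G5 and 9.78, 8.36 and 12.5 in H7, a log2 difference of -2.62 ± 0.15 (SE), adjusted p = 3.36e-07. Its neighbour Ccl7 was at 1.03, 1.66 and 1.7 CPM in F5, 0.706, 1.22 and 1.27 in G5 and 9.07, 8.76 and 13.7 in H7, a log2 difference of -3.07 ± 0.14 (SE). For both, every H7 library exceeded every other clone library and every parental library (3.14 to 5.37 CPM for Ccl2 and 2.51 to 4.71 for Ccl7). The neutrophil attractant Cxcl5 showed -1.19 ± 0.12 (SE). Cxcl12, the ligand of CXCR4 that fibroblasts make, went the other way at 15.8, 22.3 and 17.3 CPM in F5, 15.8, 15.9 and 17.2 in G5 and 1.91, 3.31 and 2.87 in H7, a log2 difference of 2.69 ± 0.13 (SE), adjusted p = 1.01e-07, with parental libraries at 17.8 to 68.5 CPM.

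Within the NF-kappaB list, Nfkbiz, an atypical inhibitor and coactivator, was at 11.3, 10.8 and 11.2 CPM in F5, 11.4, 13.6 and 9.71 in G5 and 23.3, 31.4 and 27.3 in H7, a log2 difference of -1.27 ± 0.09 (SE). Tnfaip2 showed -0.72 ± 0.04 (SE) and Ier3 -0.52 ± 0.05 (SE). Of the subunits, Relb (-0.69 ± 0.08 (SE)), Nfkb2 (-0.28 ± 0.04 (SE)) and Nfkb1 (-0.23 ± 0.04 (SE)) were called higher in H7, while Rela (0.05 ± 0.04 (SE)) and Rel (-0.06 ± 0.06 (SE)) were not called. Interferon-stimulated genes were higher in H7 at 9 of 17 tested members and in F5 and G5 at 2, with Ifit1 at -1.75 ± 0.25 (SE) and Stat2, a factor of the interferon pathway, at 0.73 ± 0.06 (SE). Those 9 and 2 became 4 and 1 without the passage block, and the 2 became 1 without H7 at passage 8 or at passage 9.

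Genes of antigen presentation and complement were higher in F5 and G5 at 7 of 18 tested members and in H7 at 3 (4 and 1 without the passage block). The class I gene H2-K1 was at 10.6, 12.1 and 10.02 CPM in F5, 9.86, 10.9 and 9.95 in G5 and 5.61, 6.7 and 5.66 in H7, a log2 difference of 0.82 ± 0.07 (SE), adjusted p = 7.45e-06, without overlap, though reads of the near-identical class I genes may be divided among them. Nlrc5, the transactivator of class I genes, had 1 count over the H7 libraries and lay between 0.459 and 1.63 CPM in F5 and 0.459 and 1.5 in G5, a ratio of 68.1 with a 95% counting interval of 12.2 to 2691. Cd55, which protects cells from complement, was at 1.61, 7.34 and 3.93 CPM in F5, 1.45, 7.8 and 3.98 in G5 and 0.119, 0.0368 and 0 in H7, a log2 difference of 6.27 ± 0.44 (SE) from 4 counts in H7, with parental libraries at 13.4 to 44 CPM. The members higher in H7 numbered 1 without H7 at passage 9 and 5 with a factor per chromosome.

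HOX genes, the transcription factors that keep positional identity in fibroblasts, were called in both directions. Of 39 listed genes 22 could be tested, 11 were higher in F5 and G5 and 9 in H7. The 11 were 8 Hoxa genes, Hoxc11, Hoxd9 and Hoxd10, and the 9 were 2 Hoxb, 5 Hoxc and 2 Hoxd genes. In H7, Hoxc8 and Hoxc9 were high: Hoxc8 was at 0.766, 0.973 and 1.08 CPM in F5, 0.459, 0.363 and 0.319 in G5 and 9.74, 11.5 and 11.6 in H7, a log2 difference of -4.17 ± 0.13 (SE), adjusted p = 6.89e-09, and Hoxc9 at 0.689, 0.753 and 0.655 CPM in F5, 0.318, 0.0453 and 0.319 in G5 and 9.5, 11 and 9.32 in H7. Hoxb9 was at 2.34, 2.26 and 2.54 CPM in F5, 0.495, 0.544 and 0.239 in G5 and 14.3, 11.9 and 12.8 in H7, a log2 difference of -3.68 ± 0.14 (SE), with parental libraries at 0.22 to 0.538 CPM. Hoxb8 lay between 2.4 and 2.62 CPM in H7 and had 3 counts over the libraries of F5 and 3 over those of G5. These 4 did not overlap between H7 and the other clones, which was a condition of choice for any of them among the genes most enriched in H7.

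Genes of the Hoxa cluster, named after their values were seen, included the other extreme. Hoxa10 and Hoxa9 had no count in H7, against 137 and 36 counts in F5 and 156 and 36 in G5, at least 48.5-fold and 11.8-fold higher. Hoxa7 showed 0.73 ± 0.09 (SE). The Hoxa cluster lies on chromosome 6, where the median gene was higher in F5 and G5, and the Hoxc cluster on chromosome 15, where it was higher in H7. With a factor per chromosome 6 rather than 11 HOX genes were higher in F5 and G5. In that fit Hoxa5 was at -0.04 and Hoxc4 at -0.06, neither called, while Hoxa7 (0.45), Hoxa10, Hoxc8 (-3.79) and Hoxc9 (-4.20) were still called.

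Imprinted genes, which are read from 1 parental copy, were higher in F5 and G5 at 13 of 23 tested members and in H7 at 6, with a median of 0.39. Snrpn was at 4.17, 4.55 and 3.74 CPM in F5 and 5.44, 6.03 and 4.7 in G5 and had no count in H7, at least 124-fold higher. Asb4 was at 54.6, 70.04 and 69 CPM in F5, 31.5, 45.3 and 50.5 in G5 and 0.716, 0.883 and 0.668 in H7, a log2 difference of 6.10 ± 0.11 (SE), adjusted p = 1.87e-10, and F5 lay above G5. Peg3, a paternally expressed zinc finger gene, was at 43.6, 44.8 and 51.5 CPM in F5, 65.5, 83.6 and 92 in G5 and 17.3, 23 and 23.4 in H7, a log2 difference of 1.53 ± 0.06 (SE), with all 3 clones apart in the order G5, F5, H7. Igf2, a fetal growth factor, went the other way at 1.19, 6.87 and 2 CPM in F5, 0.706, 5.94 and 1.75 in G5 and 7.08, 29 and 16.4 in H7, a log2 difference of -2.65 ± 0.15 (SE), and its parental range was 100.4 to 798 CPM, above every clone library. Its receptor and sink Igf2r was higher in F5 and G5 at 0.75 ± 0.04 (SE). The counts are not split by allele.

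**Figure D4:**
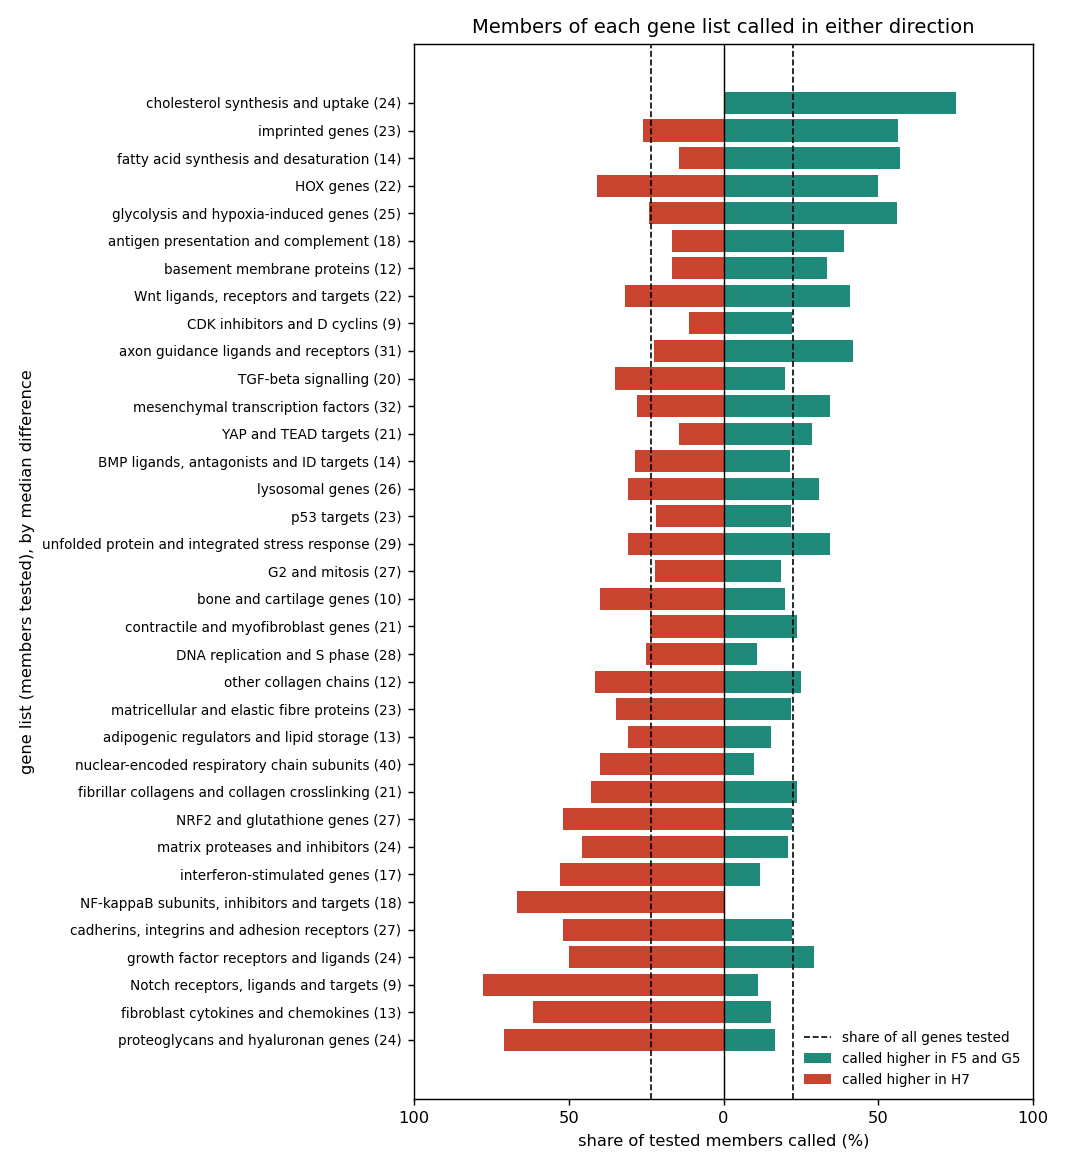
Share of the tested members of each gene list called higher in F5 and G5 (right) or higher in H7 (left), with the number tested in brackets and lists ordered by median difference. Dashed lines give the shares over all genes tested, 22.5% and 23.6%. Cholesterol synthesis reaches 75.0% on the right and 0 on the left, while proteoglycans and hyaluronan genes reach 70.8% on the left.

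Among Wnt genes 9 of 22 were higher in F5 and G5 and 7 in H7. The receptor Fzd1 was at 24.6, 33.6 and 30.7 CPM in F5, 28.9, 40.2 and 34.9 in G5 and 81.5, 124 and 117 in H7, a log2 difference of -1.74 ± 0.04 (SE), adjusted p = 1.91e-09, and the coreceptor Lrp5 showed -0.61 ± 0.03 (SE), while the receptor Fzd5 (0.53 ± 0.04 (SE)) and the secreted antagonist Dkk3 (0.56 ± 0.05 (SE)) were higher in F5 and G5. None of these 4 overlapped. For TGF-beta signalling 4 of 20 members were higher in F5 and G5 (1 without the passage block) and 7 in H7 (3 with limma on log2(TPM + 1) and 4 with a factor per chromosome), with a median of 0.03: Ltbp1, which binds latent TGF-beta, showed 0.60 ± 0.05 (SE), the ligand Tgfb1 -0.46 ± 0.07 (SE) and the receptor Acvrl1 -1.60 ± 0.23 (SE). Smad2, on chromosome 18, showed -0.31 ± 0.05 (SE) and was at -0.02 with a factor per chromosome, no longer called.

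Of 14 BMP genes 3 were higher in F5 and G5 and 4 in H7 (1 and 2 without the passage block, and 2 rather than 4 in H7 with a factor per chromosome), led by Fstl1 (-0.63 ± 0.03 (SE)) and the procollagen protease gene Bmp1 (0.53 ± 0.06 (SE)). Notch genes were called higher in H7 at 7 of 9 tested members and higher in F5 and G5 at 1, of which the target Hes1 had the smallest adjusted p (-1.42 ± 0.17 (SE), adjusted p = 5.75e-05) and Notch3, Notch4 and Jag2 overlapped between clones. Notch4 was no longer called without H7 at passage 7 or passage 9, and Jag2 without H7 at passage 9. The 7 fell to 4 without H7 at passage 8 or at passage 9, and to 1 without the passage block, while the single call the other way was lost without H7 at passage 9 and with a factor per chromosome. Growth factor genes were higher in H7 at 12 of 24 and in F5 and G5 at 7, among them the EGF-family ligand Ereg (-0.84 ± 0.07 (SE)) in H7 and the receptor Fgfr2 (0.59 ± 0.04 (SE)) in F5 and G5.

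Axon guidance genes, which many mesenchymal cells also use, were higher in F5 and G5 at 13 of 31 and in H7 at 7 (4 without the passage block). Slit2, a secreted ligand of Robo receptors, was at 49, 106 and 81.8 CPM in F5, 50.8, 93.1 and 63.5 in G5 and 313, 427 and 376 in H7, a log2 difference of -2.37 ± 0.08 (SE), adjusted p = 1.54e-08, and H7 lay above the parental range of 78.7 to 163 CPM. Epha7, an ephrin receptor, was at 2.18, 3.08 and 2.12 CPM in F5, 2.08, 2.36 and 2.27 in G5 and no count in H7, at least 60.9-fold higher. The semaphorin receptors Plxna2 (0.89 ± 0.05 (SE)) and Plxna4 (-0.70 ± 0.05 (SE)) went opposite ways.

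Of 27 G2 and mitosis genes 5 (18.5%) were higher in F5 and G5 and 6 (22.2%) in H7, near the shares over all genes tested. The counts became 11 and 3 without H7 at passage 8 and 3 and 1 without the passage block. Ccnb2, cyclin B2, was at 12.4, 9.16 and 11.8 CPM in F5, 13.5, 10.1 and 13.2 in G5 and 0.159, 0.0736 and 0.393 in H7, a log2 difference of 5.79 ± 0.20 (SE), adjusted p = 1.65e-08. Its relative Ccnb1, a member of the same list named after its values were seen, was not called at 0.05 ± 0.06 (SE), and the proliferation marker Mki67 was at 0.01 ± 0.07 (SE). Of 28 S phase genes 3 were higher in F5 and G5 and 7 in H7, and these became 6 and 4 without H7 at passage 8 and 1 and 1 without the passage block. With a factor per chromosome the counts were 0 and 3. The 7 became 4 without F5 or without G5 at passage 8. Of its named members, Mcm2 (0.33 ± 0.05 (SE)), Mcm4 (-0.32 ± 0.06 (SE)) and Cdc45 (-0.38 ± 0.06 (SE)) lie on chromosomes 6, 16 and 16 and were no longer called with a factor per chromosome.

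Stress and detoxification genes were divided as well. NRF2 and glutathione genes were higher in H7 at 14 of 27 tested members and in F5 and G5 at 6, with Nqo1, a quinone reductase, at 36.2, 22.8 and 36.5 CPM in F5, 40.1, 20.1 and 40.7 in G5 and 63.5, 43.5 and 63.7 in H7, a log2 difference of -0.82 ± 0.07 (SE), and Gstp1 the other way at 0.29 ± 0.03 (SE). The 14 and 6 became 6 and 3 without the passage block, and the 14 became 7 with limma on log2(TPM + 1). Of 29 tested unfolded protein and integrated stress response genes, 10 were higher in F5 and G5 and 9 in H7. These became 4 and 6 without the passage block, and 5 and 11 with a factor per chromosome. Most called chaperones of the endoplasmic reticulum named here were higher in H7, with Hsp90b1 the other way. Hspa5, or BiP, was at 377, 379 and 342 CPM in F5, 382, 369 and 366 in G5 and 507, 557 and 559 in H7, a log2 difference of -0.55 ± 0.04 (SE), adjusted p = 3.06e-06. Hsp90b1, or GRP94, was at 723, 707 and 754 CPM in F5, 796, 713 and 822 in G5 and 427, 485 and 525 in H7, a log2 difference of 0.65 ± 0.05 (SE), adjusted p = 2.78e-06. Neither overlapped between H7 and the other clones. Taken outside the naming rule, Calr (-0.28), Hyou1 (-0.23), Dnajc3 (-0.29) and Manf (-0.28) were also called higher in H7, while Pdia4 (0.02) and Pdia6 (-0.12) were not called. Hsp90b1 lies on chromosome 10, where the median gene was higher in F5 and G5, and was at 0.47 with a factor per chromosome, still called.

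Of YAP and TEAD targets 6 of 21 were higher in F5 and G5 (3 without the passage block) and 3 in H7 (5 without H7 at passage 7), with Ankrd1 at 0.73 ± 0.06 (SE). Its member Asap1, on chromosome 15, showed -0.24 ± 0.03 (SE) and turned to 0.15 with a factor per chromosome. Adipogenic genes were higher in H7 at 4 of 13 and in F5 and G5 at 2: the acyltransferase Agpat2 showed -4.34 ± 0.29 (SE) and the lipid droplet gene Plin4 2.50 ± 0.26 (SE). For Plin4 both H7 and the parental line (0.554 to 0.968 CPM) lay below all libraries of F5 and G5, which held 2.87 to 8.85 and 3.46 to 7.52 CPM.

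Other lists held calls in both directions. Of 32 tested mesenchymal transcription factors 11 were higher in F5 and G5 and 9 in H7 (6 and 5 without the passage block), among them Lhx9 (0.92 ± 0.07 (SE)) and Nr2f1 (0.60 ± 0.05 (SE)). Of 21 contractile genes 5 were higher on each side (23.8%), near the 22.5% and 23.6% of all genes tested. The myosin light chain kinase Mylk (-1.22 ± 0.08 (SE)) and skeletal actin Acta1 (-1.41 ± 0.23 (SE)) were higher in H7 without overlap. The 5 higher in F5 and G5 became 2 or 3 without F5 at any 1 passage, without G5 at passage 7 or without H7 at passage 7, 1 without the passage block and 2 with a factor per chromosome, while the 5 higher in H7 became 10 without H7 at passage 7. Of 26 lysosomal genes 8 were higher on each side, with the cathepsins Ctsk (-0.77 ± 0.09 (SE)), Ctsl (-0.75 ± 0.07 (SE)) and Ctsz (-0.52 ± 0.05 (SE)) higher in H7 and Ctsa (0.41 ± 0.05 (SE)) in F5 and G5. The 8 higher in H7 became 4 without H7 at passage 7 and 5 without F5 at passage 7, F5 at passage 9 or G5 at passage 7. Without the passage block 5 were higher in F5 and G5 and 3 in H7. Of 23 p53 targets 5 were higher on each side (21.7%), again near the shares over all genes tested. The 5 higher in H7 became 3 without G5 at passage 8 or H7 at passage 7, 2 without the passage block and 8 with a factor per chromosome. Tigar, which lowers glycolysis by its action on fructose bisphosphate, showed 1.42 ± 0.16 (SE), and the death receptor gene Tnfrsf10b 0.72 ± 0.06 (SE).

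Differences were also arranged by chromosome. The median log2 difference was -0.39 over 533 tested genes of chromosome 15, -0.29 over 385 of chromosome 18 and -0.23 over 418 of chromosome 16, all toward H7, and 74.5%, 65.5% and 60.05% of those genes were called higher in H7. Toward F5 and G5 the median was 0.28 over 769 genes of chromosome 6, 0.19 over 641 of chromosome 10 and 0.10 over 454 of chromosome 19, with 62.2%, 48.5% and 40.3% called higher in F5 and G5. On the other chromosomes the medians lay between -0.10, on chromosome 7, and 0.066, on chromosome 17. The medians for F5 and G5 alone were -0.38 and -0.40 on chromosome 15 and 0.29 and 0.27 on chromosome 6. They differed more on chromosome 7, with -0.17 for F5 and -0.048 for G5. The part of chromosome number in these medians was not tested.

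**Figure D5:**
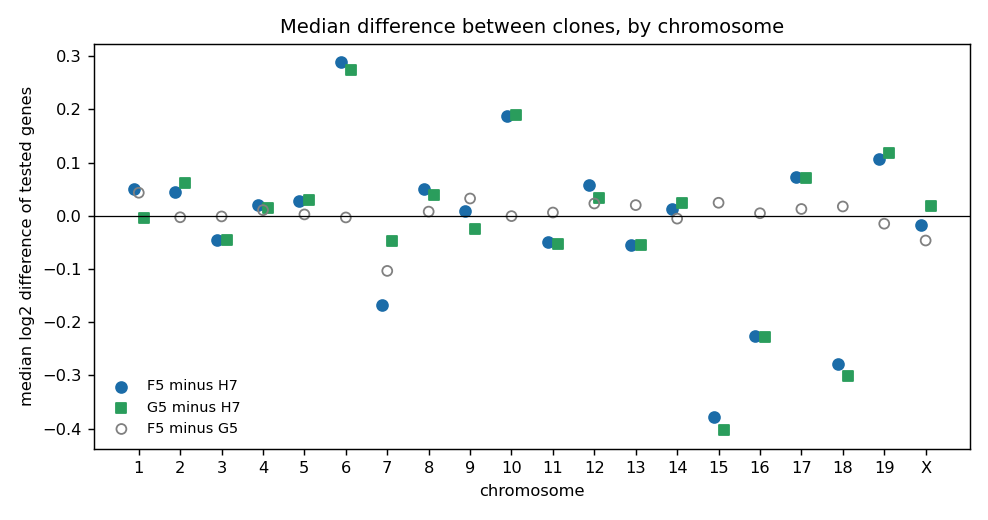
Median log2 difference of the tested genes of each chromosome for F5 minus H7, G5 minus H7 and F5 minus G5. Chromosomes 15, 16 and 18 lie lowest and 6 and 10 highest for both F5 and G5 against H7, and F5 minus G5 departs most from 0 on chromosome 7, at -0.10.

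The factor per chromosome was the median shift of a chromosome's genes in each library, added to the genome-wide TMM scaling. It takes the median shift of a chromosome out by construction, but not a shift of part of a chromosome. On chromosome 10, 33.2% of genes were called higher in F5 and G5 with it and 33.1% higher in H7. On every other chromosome each share lay between 15.1% and 24.4%. The cause of the high shares on chromosome 10 was not tested, and adjusted values of its genes may still hold a shift. With it 5762 genes were called, 2778 higher in F5 and G5 and 2984 higher in H7. Of the 6678 calls of the first fit 4867 (72.9%) were made again in the same direction. Of the 156 named genes called in the first fit, 7 were no longer called (Cdc45, Cdkn1b, Mcm2, Mcm4, Mthfd2, Smad2 and Zeb1) and Asap1 reversed.

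Genes in which F5 and G5 differed from H7 in opposite directions were few: 24 were called opposite in the 2 comparisons with H7. Aebp1 was one, with 0.39 for F5 and -0.20 for G5. Cgnl1, a tight junction protein gene, was at 0.612, 3.14 and 1.54 CPM in F5, 7.14, 20.5 and 12.3 in G5 and 2.39, 9.42 and 6.21 in H7, so that G5 was highest and F5 lowest at every passage. Sema3a, a secreted guidance protein, was at 61.8, 70.9 and 66.2 CPM in F5, 110.3, 113 and 113 in G5 and 88.2, 99.2 and 87.6 in H7, and the 3 clones did not overlap. For Aebp1, Cgnl1 and Sema3a the mean of F5 and G5 describes neither clone.

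Markers of cells other than fibroblasts were checked in the same libraries. Of 12 glial and neuronal markers 4 could be tested and 3 were higher in H7. Snap25 (-3.11 ± 0.17 (SE)) and Map2 (-1.34 ± 0.11 (SE)) were among them. Their summed level was 49.7 to 73.4 CPM in H7, 23.7 to 26.7 in F5 and 18.5 to 23.2 in G5, while Sox10, S100b, Foxd3, Ngfr and Elavl4 were at 0 in all 9 libraries. Summed epithelial markers were 2.11 CPM or less in any library, with Epcam at 0, and endothelial markers 1.57 or less, with Kdr at 0. Immune cell markers were 5.79 to 7.96 CPM, mostly Cd68, with Cd3e at 0, and skeletal muscle markers 1.85 or less, with Myod1 and Myog at 0. Of 13 tested fibroblast markers 8 were higher in H7 and 2 in F5 and G5 (1 with a factor per chromosome). The Y-linked genes listed were too few in counts in the clones to test. Kdm5d, Eif2s3y and Ddx3y had 7, 13 and 20 counts in F5 and 0 in G5 and in H7. Of the 11 listed, 4 had a count, so the sums in G5 and H7 come from listed genes not named here. The summed level was 0.268 to 0.925 CPM in F5, 0.106 to 0.319 in G5 and 0.0398 to 0.275 in H7. In the parental libraries it was far higher, at 45.006 to 47.047 CPM. The cause of this gap was not tested.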

How the data were processed

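Total RNA of 12 NIH3T3 cultures was depleted of ribosomal RNA and read as paired ends on a NovaSeq, per the labels' protocols. Both files of the series came from the authors, 1 with estimated counts and 1 with TPM per gene, on build GRCm38 per the submitters' processing notes. The estimated counts, as deposited, cover 48795 genes and 86.9% of those above 0.5 lie within 0.01 of a whole number. The sources used here name no aligner, counting tool, strand setting or annotation. Without a known strand setting, reads of overlapping or antisense genes may be divided wrongly. Symbols and chromosomes came from GENCODE M21, which matched 48435 of the IDs, and promoter sequences from RefSeq on GRCm38.p6.

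Counts were rounded, genes with low counts were dropped with filterByExpr by clone, and the 14487 genes left were tested with edgeR's quasi-likelihood F-test (edgeR 4.0.16, R 4.3.3), TMM factors, and clone and passage as terms. The contrast was the mean of F5 and G5 minus H7, with Benjamini-Hochberg adjustment over all genes tested and calls at an adjusted p under 0.05. The fit had 4 residual degrees of freedom, and the biological coefficient of variation was 6.25%. Libraries held 22088695 to 31329735 counts, and no pair of libraries of the same clone agreed within counting noise. Pairs from different clones were not checked in this way. Passage numbers come from the labels, and the rule of the comparison made passage a block. Deviations from the clone means correlated over genes at 0.154 to 0.527 for the 9 pairs of libraries of the same passage. For the 18 pairs of different passages they correlated at -0.522 to 0.0154. Deviations cancel within a clone, so positive values for the first pairs push the second toward negative values by construction.

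DESeq2 1.42.0, limma 3.58.1 on log2(TPM + 1) and log2(TPM + 0.1), other scalings and filters, libraries and passages left out, all 12 libraries, summed counts and a factor per chromosome were the alternatives. The last was the median shift of a chromosome's genes in each library, added to the TMM scaling. Named genes were Aebp1, the 12 with the largest difference in each direction (the smaller of the F5 and G5 differences, at least 5 CPM in the higher arm, libraries apart), up to 4 members of each list that is not a marker list by smallest adjusted p, 6 genes called in opposite directions in F5 and G5, and Y-linked genes. Members and lists were chosen with earlier results of these data known, and other genes named were picked after their values were seen. List medians were the same with genes at 0 in H7 set to their bounds. Where a gene had no count in a clone, folds used a floor of 3 counts over its libraries. Some members of the lists are counted but not reported by name here.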

Additional observations from a re-analysis of the deposited data

Results flagged for a closer look

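F5 and G5 departed from H7 in opposite directions at 6 of the named genes, and the difference between F5 and G5 from the edgeR fit is given for each. Since calls in opposite directions against the same H7 libraries chose these genes, the differences are a description and carry no test. Aebp1, the targeted gene, was at 0.39 in F5 and -0.20 in G5 against H7 on the log2 scale, and F5 minus G5 was 0.59 ± 0.05 (SE). Tnc, tenascin C, a matricellular protein, was at 339, 479.9 and 387 CPM in F5, 412, 689.8 and 561 in G5 and 336, 541 and 505 in H7 at passages 7, 8 and 9. Against H7 it was at -0.18 in F5 and 0.26 in G5, and F5 minus G5 was -0.45 ± 0.06 (SE). Pde4b, a cyclic AMP phosphodiesterase, was at 34.3, 63 and 44 CPM in F5, 49.7, 81.6 and 61.1 in G5 and 42.7, 67.7 and 59.2 in H7 at passages 7, 8 and 9. Against H7 it was at -0.28 in F5 and 0.18 in G5, and F5 minus G5 was -0.46 ± 0.06 (SE). Sema3a, a secreted guidance protein, was at -0.47 in F5 and 0.29 in G5 against H7 on the log2 scale, and F5 minus G5 was -0.76 ± 0.05 (SE). Arnt2, a bHLH-PAS transcription factor, was at 23.6, 41.5 and 31.6 CPM in F5, 29.8, 64.1 and 46.8 in G5 and 27.8, 55.4 and 42.3 in H7 at passages 7, 8 and 9. Against H7 it was at -0.36 in F5 and 0.15 in G5, and F5 minus G5 was -0.52 ± 0.06 (SE). Cgnl1, paracingulin, a junction protein, was at -1.77 in F5 and 1.20 in G5 against H7 on the log2 scale, and F5 minus G5 was -2.97 ± 0.16 (SE).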

How the results depend on the processing

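Passage numbers pair the libraries, so the fit without the replicate block shows what the pairing contributes. Without it 4195 genes were called between F5 and G5 and H7, 2092 higher and 2103 lower, with 3426 for F5 and 3279 for G5 against H7 and 45 between F5 and G5. With all 12 libraries in the fit these counts were 3315, 1654, 1661, 2621, 2496 and 21. With counts summed per clone, where F5 and G5 are 2 replicates against 1 H7 sum, 3295 genes were called, 1642 higher and 1653 lower, on the assumption that the lone H7 sum varies as the others. Tested against a minimum log2 difference of 1, the 6 counts were 456, 216, 240, 404, 437 and 32.

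Leaving out each library in turn gave 5485 to 6309 calls between F5 and G5 and H7. The count between F5 and G5 ranged from 121 to 823 in this way. Other settings for that count gave 896 with no filter on low counts, 164 and 170 with limma on log2(TPM + 1) and log2(TPM + 0.1), and 276, 211 and 45 without passages 7, 8 and 9. The cause of these moves was not tested. With limma on TPM 59.6% and 59.8% of calls were higher in F5 and G5, against 48.9% in the count fit.

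The main count was within 1.5 times of 6678 with RLE factors (6685), upper-quartile factors (6676), DESeq2 (5373), no filter (6803), a filter at 1 CPM (6395), F5 and G5 as 1 group of 6 (5893) and factors per chromosome (5762). Of 156 named genes called, 17 were lost without the block, 33 with 12 libraries, 11 with summed counts and 98 against the minimum of 1, and 0 with DESeq2. Asap1 reversed to 0.15 with factors per chromosome, which takes out the median shift of chromosome 15 by construction. Leaving out 1 library ended 3 calls: Ccnd3, lost without F5 or H7 at passage 8 or without G5 or H7 at passage 9, Notch4, lost without H7 at passage 7 or 9, and Jag2, lost without H7 at passage 9. It also made 3 named genes called that were not: Aebp1 without H7 at passage 9 (0.15), Arnt2 without F5 at passage 7 (-0.13) and Cgnl1 without F5 at passage 8 (-0.41), G5 at passage 7 (-0.37) or H7 at passage 7 (-0.36). Aebp1 was also called with factors per chromosome (0.16), and Cgnl1 without passage 7 (-0.34). Genes under a few CPM rest on few counts, and with 4 residual degrees of freedom and 1 clone on one side the fit describes these clones only.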
